A study of Mus musculus with 8 samples.

Results

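Cholesterol genes were described in bulk RNA-seq of the mouse medial prefrontal cortex (mPFC). The 28 genes were taken by name from a count table of 54532 genes, all 28 were found there, and all 28 had enough counts to be tested among 16745 genes. All mice were male adult C57BL/6 animals in a conditioned place preference (CPP) experiment with methamphetamine, in which a mouse comes to prefer the compartment paired with the drug. The retrieval group holds 4 libraries, and so does the non-retrieval group. Tissue was taken 1 h after the test and pooled from 2 to 3 mice for each library, so p-values measure the spread between pools. The labels leave out what was done with the non-retrieval mice, so handling cannot be told apart from retrieval. Libraries held 25013503 to 29547978 counts.

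The brain makes its own cholesterol, since lipoproteins of the blood hardly cross the blood-brain barrier. Acetyl-CoA is built up through mevalonate to squalene, squalene is closed to a ring, and the ring is trimmed to cholesterol. The SREBP transcription factors, held in the endoplasmic reticulum by Scap and the Insig proteins while sterol is plentiful, switch the enzymes on when it runs low. Oligodendrocytes use cholesterol for myelin, and astrocytes pass it to neurons on particles that carry apolipoprotein E and are loaded by the Abca1 and Abcg1 transporters.

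Of the 28 genes, 2 rose in retrieval, Cyp51 and Abca1, and none fell. Cyp51, the lanosterol demethylase of the synthesis pathway, averaged 87.5 ± 6.68 CPM in retrieval and 68.4 ± 2.81 CPM in non-retrieval (SD, n = 4 each; CPM are read counts scaled for library size), a fold of 1.28. Abca1, the pump that loads cholesterol onto apolipoproteins, averaged 42.2 ± 3.70 CPM in retrieval and 33.8 ± 2.52 CPM in non-retrieval (SD, n = 4 each), a fold of 1.25. The other 26 genes did not pass edgeR's quasi-likelihood test at an adjusted p under 0.05. DESeq2 and limma-voom also called 0 of the 28 lower, and 1 of them, Tm7sf2, was lower at an unadjusted p under 0.05 in edgeR. Across all tested genes 4.57% passed, 3.67% higher and 0.902% lower in retrieval, so the 2 higher genes of 28 (7.14%) are to be read against 3.67%. An unadjusted p under 0.05 was reached by 5 of the 28 (17.9%), close to the 18.5% of all tested genes.

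The median log2 fold change of the 28 genes, retrieval over non-retrieval, was 0.073, against -0.0095 over all tested genes. A positive log2 fold change was seen in 21 of the 28 (75.0%), against 47.8% of all tested genes; with upper-quartile scaling it was 19 of the 28, Fdft1 and Scap having changed sign, and the median was 0.046. The median dropped to 0.030 when retrieval replicate 2 was left out, to 0.042 when retrieval replicate 4 was, and to 0.043 when non-retrieval replicate 1 was. Taken library by library, the median log2 difference of the 28 genes from the non-retrieval means was 0.038, 0.10, 0.038 and 0.11 in retrieval replicates 1 to 4 and -0.047, 0.0025, 0.038 and -0.0044 in non-retrieval replicates 1 to 4. Retrieval replicates 1 and 3 thus stood level with non-retrieval replicate 3, and retrieval replicates 2 and 4 stood above all others.

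**Figure D1:**
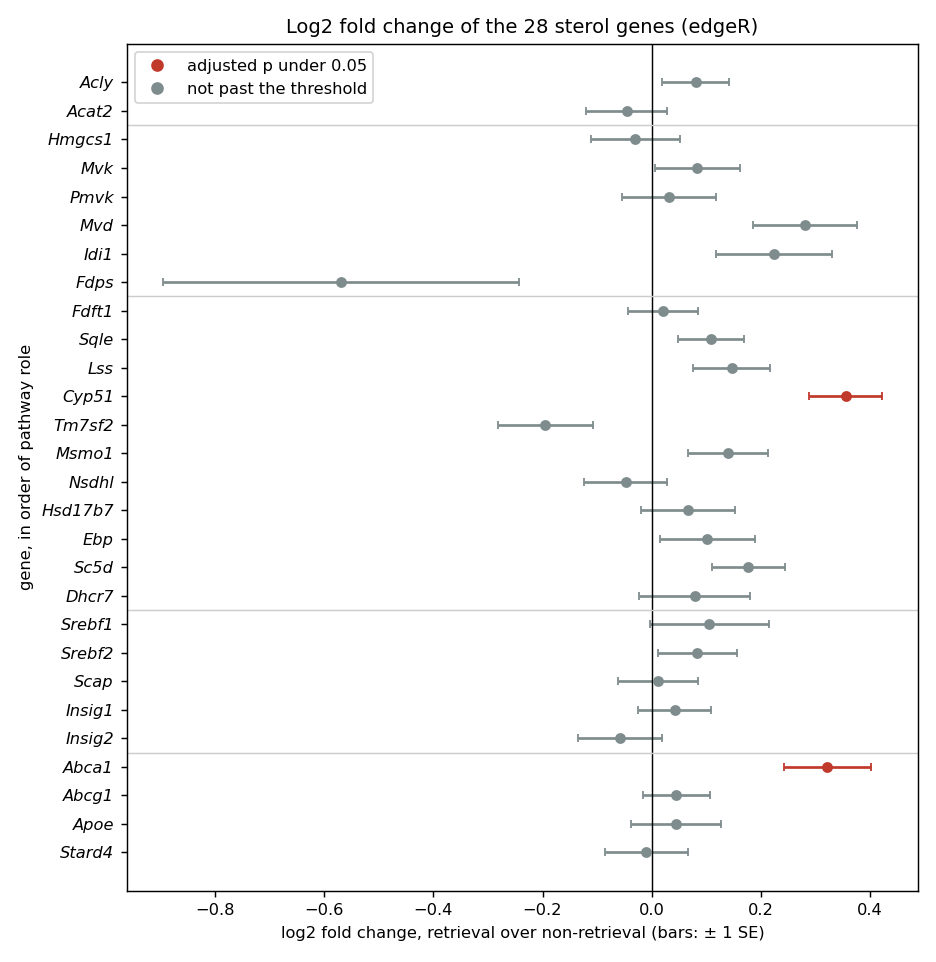
Log2 fold change (retrieval over non-retrieval, x axis) with 1 SE for the 28 genes, ordered down the page by pathway role. Cyp51 and Abca1, in red, passed the test, and Fdps has by far the widest error bar.

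Markers of other cells were set beside these results. Cortical excitatory neuron markers were strong in every library, at a mean log2 CPM of 7.82 to 7.89 in retrieval and 7.78 to 7.85 in non-retrieval. None of these 10 was called in edgeR, and 3 reached an unadjusted p under 0.05, Nrgn lower and Cux2 and Fezf2 higher in retrieval. The 20 myelin markers, genes of a cell type that makes much cholesterol, summed to 4635, 6566, 4611 and 6010 CPM in retrieval and 3841, 4482, 4097 and 3861 CPM in non-retrieval, so that the groups did not overlap, and 8 of the 20 were called higher. The 10 striatal markers summed to 257, 442, 314 and 264 CPM in retrieval and 252, 298, 291 and 287 CPM in non-retrieval. Retrieval replicate 2 held the top value, none of the 10 was called in edgeR, and 4 reached an unadjusted p under 0.05. The 15 astrocyte markers overlapped, at 5231 to 6191 CPM in retrieval and 5105 to 5572 CPM in non-retrieval, and none was called in edgeR (2 at an unadjusted p under 0.05). Of 12 microglia and 10 endothelial markers none was called either (1 of each at an unadjusted p under 0.05). The 2 choroid plexus and ependyma markers that could be tested were not called, and 2 reached an unadjusted p under 0.05. Calls were also made in 3 further lists. Of 10 oligodendrocyte precursor markers, Gpr17 and Bcas1 were higher and 8 were not called. Among these 8 were Pdgfra (edgeR adjusted p = 0.374) and Cspg4 (edgeR adjusted p = 0.497). The list summed to 388 to 521 CPM in retrieval and 371 to 438 CPM in non-retrieval. Of 10 pericyte, smooth muscle and fibroblast markers, Col1a2 and Myh11 were higher, with sums of 139 to 147 CPM in retrieval and 135 to 143 CPM in non-retrieval. Of 10 interneuron markers, Pvalb was lower (log2 fold change -0.41, SE 0.11; edgeR adjusted p = 0.0355), with sums of 1422 to 1603 CPM in retrieval and 1459 to 1679 CPM in non-retrieval. Every marker named or counted here had counts in every library, and what the myelin and striatal markers contribute to the results was not tested beyond the fits with a covariate. More cells of a type and more RNA per cell cannot be told apart in bulk tissue.

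When the myelin markers' mean log2 CPM entered the model, none of the 28 genes passed. That mean was 6.10, 6.48, 6.03 and 6.38 in retrieval and 5.84, 6.06, 5.91 and 5.90 in non-retrieval. It was mostly higher in retrieval, so the fit can hardly separate it from the group. Calls lost in it therefore do not show what the myelin markers contribute. Cyp51 had a log2 fold change of 0.39 against 0.36 without the markers (edgeR adjusted p = 0.0542 with them) and Abca1 0.32 in both fits (edgeR adjusted p = 0.217 with them), whereas Mvd stood at 0.079 against 0.28 (edgeR adjusted p = 0.817). The median of the 28 genes was 0.018 in that fit, with 16 positive, and 199 genes were called in all. With the striatal markers as a covariate the log2 fold change of Cyp51 was 0.40 (edgeR adjusted p = 0.00254) and that of Abca1 0.31 (edgeR adjusted p = 0.0692). Sc5d passed in that fit, at 0.25 (edgeR adjusted p = 0.0458). With the astrocyte markers Cyp51 and Abca1 passed, and the median of the 28 genes was 0.043.

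**Figure D2:**
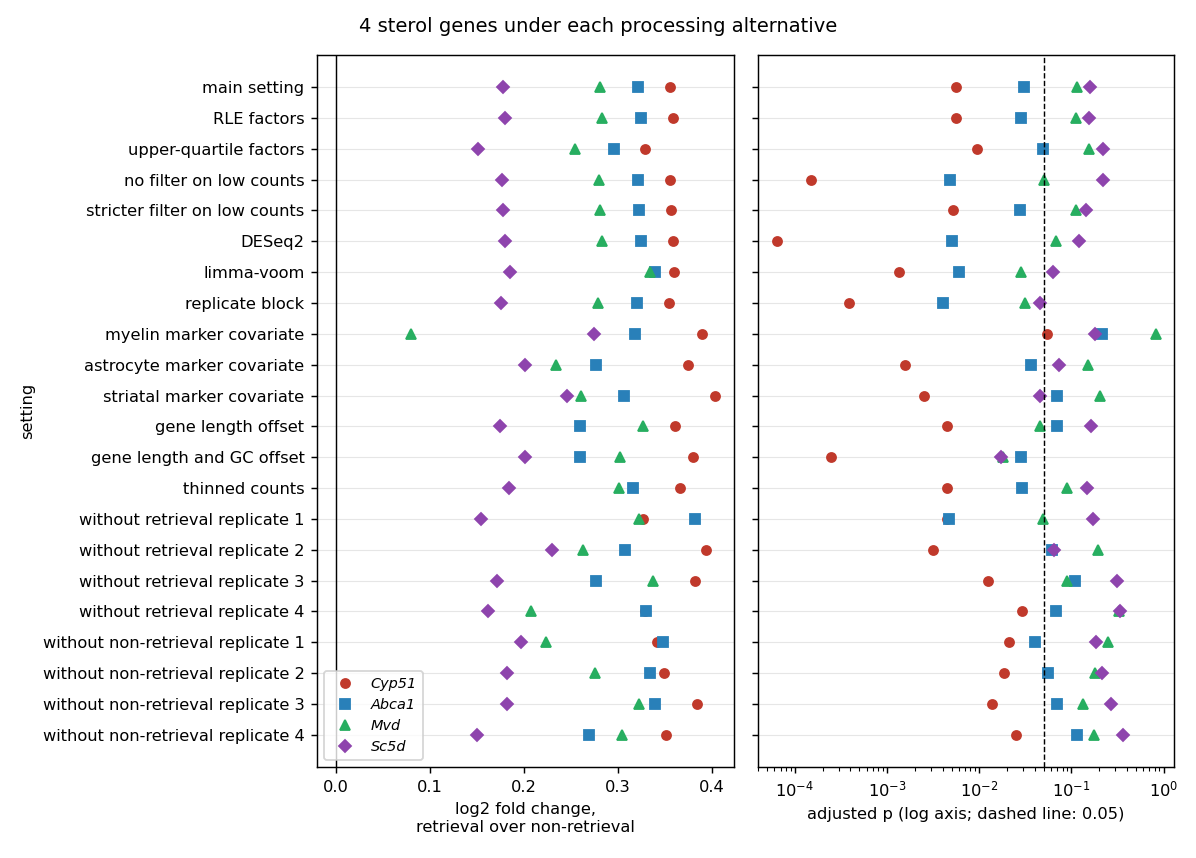
Log2 fold change (left) and adjusted p (right, log axis, dashed line at 0.05) of Cyp51, Abca1, Mvd and Sc5d under each processing alternative, named at the left. Cyp51 crosses the dashed line with the myelin covariate only, while Abca1 lies on either side of it.

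Levels differed widely between the genes. Per kilobase of gene model, Apoe stood highest, at 670 ± 71.8 CPM per kb in retrieval and 649 ± 64.4 CPM per kb in non-retrieval (SD, n = 4 each). Hmgcs1, the synthase that commits acetyl-CoA to the pathway, came next at 58.3 ± 6.95 CPM per kb in retrieval and 59.5 ± 4.79 CPM per kb in non-retrieval. Srebf2, the SREBP gene that mainly drives cholesterol synthesis, was level with it within the spread, at 56.2 ± 4.49 CPM per kb in retrieval and 53.0 ± 4.49 CPM per kb in non-retrieval. Acly followed at 41.2 ± 1.95 CPM per kb in retrieval, and Insig1 at 32.0 ± 1.66 CPM per kb. Cyp51 stood at 19.8 ± 1.51 CPM per kb in retrieval and 15.5 ± 0.637 CPM per kb in non-retrieval, and Abca1 at 4.08 ± 0.357 CPM per kb in retrieval and 3.26 ± 0.243 CPM per kb in non-retrieval. Over all 8 libraries, 9 genes lay between Tm7sf2 at 2.92 CPM per kb and Stard4 at 7.51 CPM per kb, and 6 of these 9 act between squalene and cholesterol.

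**Figure D3:**
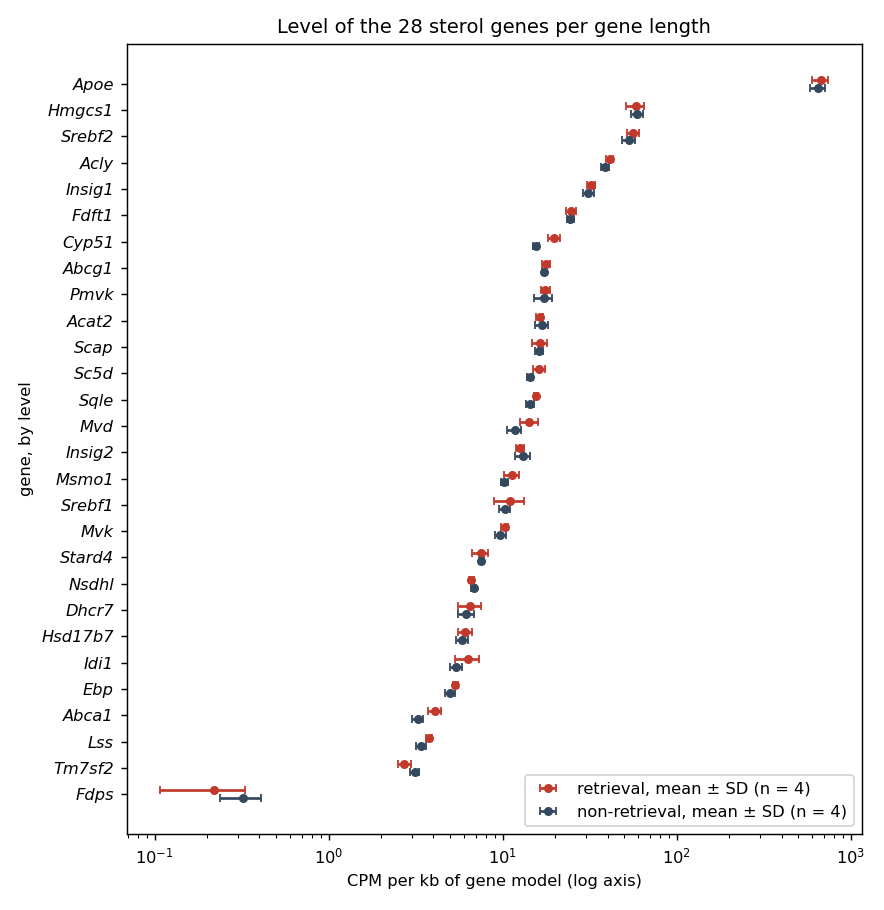
Mean level per kilobase of gene model with its SD over 4 libraries (log x axis), retrieval in red above non-retrieval in dark blue for each of the 28 genes, sorted by level. Apoe lies about an order of magnitude above Hmgcs1 and Srebf2, and Fdps lies alone at the bottom.

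The lowest level belonged to Fdps, farnesyl diphosphate synthase, whose count is uncertain. It had 31, 17, 40 and 14 counts in retrieval replicates 1 to 4 and 26, 30, 46 and 50 counts in non-retrieval replicates 1 to 4, or 0.219 CPM per kb in retrieval and 0.323 CPM per kb in non-retrieval. Its neighbours in the pathway were far higher, Idi1 at 17.7 to 26.3 CPM and Fdft1 at 95.02 to 110 CPM over the 8 libraries, against 0.507 to 1.68 CPM for Fdps. In the GENCODE M21 annotation of the same build, exons of another gene on the same strand, Gm43738, cover 26.7% of its exon bases. Transcripts of 5 other genes align to it over at least 300 bases at 95% identity or more, the longest over 1066 bases. These 5 genes include Gm43738. Both neighbours have such matches too, Idi1 in 3 other genes (longest 684 bases) and Fdft1 in 2 (longest 1249 bases). These matches include genes whose exons overlap on the opposite strand. Gm48574 covers 9.22% of the exon bases of Idi1, and Ctsb 18.3% of those of Fdft1. What these shared stretches do to the counts of the 3 genes was not tested. The log2 fold change of Fdps, -0.57 (SE 0.33; edgeR adjusted p = 0.376), rests on its few counts.

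Neither gene of acetyl-CoA supply passed the test. Acly, which splits citrate into cytosolic acetyl-CoA, had 211, 230, 207 and 220 CPM in retrieval and 200, 216, 193 and 214 CPM in non-retrieval, ranges that overlap (log2 fold change 0.08, SE 0.06; edgeR adjusted p = 0.520). Acat2, the thiolase that joins acetyl-CoA units, averaged 41.4 ± 2.03 CPM in retrieval and 42.8 ± 3.84 CPM in non-retrieval (SD, n = 4 each), a log2 fold change of -0.05 (SE 0.07). Its copy Acat3 matches it at 97.7% identity over 1477 bases, so reads of the pair can be split unevenly.

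Of the 6 genes of the mevalonate and isoprenoid steps, none passed the edgeR test and 1, Mvd, reached an unadjusted p under 0.05. Their median log2 fold change was 0.06. Mvd, the decarboxylase that makes isopentenyl diphosphate, had 24.6, 27.4, 23.4 and 30.3 CPM in retrieval and 19.0, 21.5, 23.6 and 22.8 CPM in non-retrieval. Its groups met at 1 pair of libraries, retrieval replicate 3 and non-retrieval replicate 3, and its log2 fold change was 0.28 (SE 0.10; edgeR adjusted p = 0.115). Of 22 alternatives, 5 called Mvd and 17 did not. Without retrieval replicate 1 its adjusted p was 0.0487 in edgeR, and limma-voom on all 8 libraries gave 0.0284. In edgeR on all 8 libraries it was 0.0314 with the replicate number as a block and 0.0460 with a gene length offset. With a length and GC offset, added after the data were seen, it was 0.0183 in edgeR. Idi1, the isomerase of the next step, had 26.3, 17.7, 22.4 and 22.1 CPM in retrieval and 18.3, 18.1, 21.4 and 18.1 CPM in non-retrieval (log2 fold change 0.22, SE 0.11; edgeR adjusted p = 0.272). Retrieval replicate 2 was the lowest library of all 8 for Idi1 and retrieval replicate 1 the highest. The kinases Mvk and Pmvk had log2 fold changes of 0.08 (SE 0.08) and 0.03 (SE 0.09). Hmgcs1, at -0.03 (SE 0.08; edgeR adjusted p = 0.884), had both its highest library, retrieval replicate 1 at 312 CPM, and its lowest, retrieval replicate 2 at 241 CPM, in the same group.

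The 11 genes from squalene to cholesterol held the enzyme that rose and the only gene of the 28 whose retrieval libraries all lay below the others. Their median log2 fold change was 0.10, with 9 of 11 positive, or 8 of 11 under upper-quartile scaling, where Fdft1 stood at -0.0053. Cyp51 had 94.04, 80.4, 83.3 and 92.3 CPM in retrieval and 65.9, 67.5, 72.4 and 67.7 CPM in non-retrieval. The lowest retrieval library thus exceeded the highest non-retrieval one, and the log2 fold change was 0.36 (SE 0.07; edgeR adjusted p = 0.00555). The call held with any 1 library left out, at edgeR adjusted p of 0.00313 to 0.0290. Exons of Akap9 on the opposite strand cover 3.76% of the exon bases of Cyp51, and the strand setting of the counting is not given in the sources used here. Akap9 itself had a log2 fold change of 0.20 (SE 0.10; edgeR adjusted p = 0.273). In GRCm38, Cyp51 (ENSMUSG00000001467) lies on chromosome 5 from 4081145 to 4104746 on the minus strand.

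Upstream of Cyp51 none of the 3 enzymes passed the test. Sqle, the epoxidase that oxidises squalene, had 87.4, 85.9, 82.7 and 87.8 CPM in retrieval and 77.4, 85.4, 77.8 and 78.2 CPM in non-retrieval (log2 fold change 0.11, SE 0.06; edgeR adjusted p = 0.354). Lss, which closes the ring to lanosterol, had 38.3, 42.1, 41.3 and 40.3 CPM in retrieval and 37.7, 39.5, 34.0 and 35.2 CPM in non-retrieval (0.15, SE 0.07; edgeR adjusted p = 0.277). In both genes 1 non-retrieval library, replicate 2, reached into the retrieval range. Fdft1, the squalene synthase, averaged 105 ± 6.81 CPM in retrieval and 103 ± 4.55 CPM in non-retrieval (SD, n = 4 each), a log2 fold change of 0.02 (SE 0.06).

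Downstream of Cyp51 none of the 7 genes passed, and fold changes were of either sign. Tm7sf2, a reductase that acts on the product of Cyp51, had 15.6, 16.2, 13.4 and 15.8 CPM in retrieval and 16.4, 17.3, 18.9 and 17.2 CPM in non-retrieval. Every retrieval library was the lower, yet the log2 fold change of -0.19 (SE 0.09) did not pass (edgeR adjusted p = 0.241). Groups that do not overlap were found with retrieval lower in 4.53% of tested genes and with retrieval higher in 6.59%, against 1 and 2 of the 28 genes. Vps51 shares 12.1% of the exon bases of Tm7sf2 on the same strand in GENCODE M21, which can divide or discard reads. The M21 model has 4403 exon bases, against 5593 in the deposited gene model. The share in the counted model is therefore not known.

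Msmo1, an oxygenase that removes methyl groups from the ring, had 75.5, 59.9, 68.7 and 72.9 CPM in retrieval and 61.9, 60.5, 66.9 and 62.1 CPM in non-retrieval (log2 fold change 0.14, SE 0.07; edgeR adjusted p = 0.328). Sc5d, the desaturase of a late step, had 83.8, 70.1, 80.3 and 81.5 CPM in retrieval and 72.3, 70.5, 70.5 and 65.9 CPM in non-retrieval. For both genes 3 retrieval libraries lay above every non-retrieval library, and retrieval replicate 2 lay below most or all of them. Sc5d had a log2 fold change of 0.18 (SE 0.07; edgeR adjusted p = 0.160). It passed with the striatal covariate and with the replicate number as a block in the model. It also passed with a combined length and GC offset (edgeR adjusted p = 0.0170), which was added after the data were seen. Ebp, the sterol isomerase, had 12.2, 13.0, 11.9 and 12.4 CPM in retrieval and 12.4, 10.7, 11.9 and 11.0 CPM in non-retrieval, ranges that overlap (log2 fold change 0.10, SE 0.09; edgeR adjusted p = 0.570). Nsdhl and Hsd17b7, which work with Msmo1, and Dhcr7, a reductase of the last steps, had log2 fold changes of -0.05 (SE 0.08), 0.07 (SE 0.09) and 0.08 (SE 0.10).

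**Figure D4:**
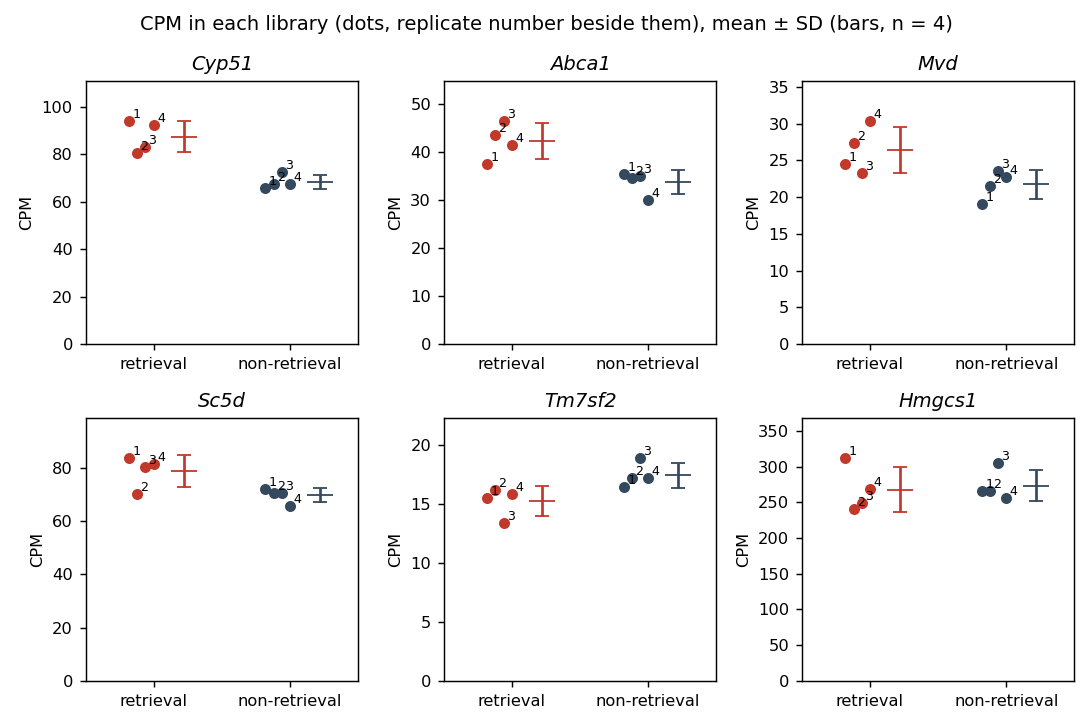
CPM in each library for 6 genes, with retrieval on the left of each panel, non-retrieval on the right and bars for the mean and SD of 4 libraries. The groups of Cyp51, Abca1 and Tm7sf2 do not overlap, and those of Mvd, Sc5d and Hmgcs1 do.

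Summed over the 11 genes from squalene to cholesterol, retrieval replicates 1 to 4 held 599, 566, 559 and 605 CPM and non-retrieval replicates 1 to 4 held 530, 543, 535 and 532 CPM. The retrieval sums all lay above the non-retrieval sums, with a mean of 583 CPM in retrieval and 535 CPM in non-retrieval. Cyp51 is part of that gap, and without it the sums were 505, 486, 475.8 and 513 CPM in retrieval and 464, 475.2, 462 and 464 CPM in non-retrieval, so that retrieval replicate 3 and non-retrieval replicate 2 stood nearly level. For the 6 mevalonate and isoprenoid genes the sums overlapped, at 422, 345, 350 and 382 CPM in retrieval and 355, 359, 412 and 357 CPM in non-retrieval, and Hmgcs1 makes up most of them.

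None of the 5 genes that sense sterol or act on that signal passed the edgeR test, and 0 reached an unadjusted p under 0.05. Srebf2 had a log2 fold change of 0.08 (SE 0.07; edgeR adjusted p = 0.577), Srebf1, the SREBP gene tied more to fatty acids, 0.11 (SE 0.11), Scap 0.01 (SE 0.07), Insig1 0.04 (SE 0.07) and Insig2 -0.06 (SE 0.08). The value of Scap turned negative with upper-quartile scaling (-0.014). Relative to its mean, Srebf1 had the widest spread of the 5 within retrieval (a coefficient of variation of 19.4%), with 46.1, 73.4, 59.9 and 69.0 CPM in retrieval and 51.7, 60.5, 58.0 and 60.6 CPM in non-retrieval. Retrieval replicate 1 was the lowest of all 8 libraries for Srebf1, and retrieval replicate 2 the highest.

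Among the 4 carriers, Abca1 rose and 3 did not pass. Abca1 had 37.6, 43.4, 46.4 and 41.5 CPM in retrieval and 35.4, 34.6, 35.0 and 30.0 CPM in non-retrieval, with no overlap (log2 fold change 0.32, SE 0.08; edgeR adjusted p = 0.0308). The margin was narrow, since retrieval replicate 1 stood just above the highest non-retrieval library. The call ended when any of replicates 2, 3 and 4 of either group was left out (edgeR adjusted p of 0.0557 to 0.114), with log2 fold changes of 0.27 to 0.34 in those 6 fits. With an offset for gene length, which is 10363 bases for Abca1, its adjusted p was 0.0700 in edgeR. Abca1 (ENSMUSG00000015243) lies on chromosome 4 from 53030787 to 53159895 on the minus strand of GRCm38. Abcg1, its partner in efflux, had a log2 fold change of 0.05 (SE 0.06), and Apoe, the main apolipoprotein of the brain, 0.04 (SE 0.08). Stard4, which carries sterol between membranes, stood at -0.01 (SE 0.08). The adjusted p of these 3 genes lay between 0.744 and 0.962 in edgeR.

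None of the 28 genes encodes a receptor for uptake, so receptors were read from another list of 36 sterol-handling genes, of which 35 were tested. Of these, 2 rose (5.71%, against 3.67% of all tested genes), none fell and 33 did not pass. Their median log2 fold change was 0.02, and 18 of 35 were positive (51.4%, against 47.8% of all tested genes). Lrp1, a large receptor that takes up particles with apolipoprotein E, had 789, 991, 882 and 902 CPM in retrieval and 681, 805, 750 and 573 CPM in non-retrieval (log2 fold change 0.34, SE 0.09; edgeR adjusted p = 0.0401). The other lipoprotein receptors in the list did not pass, and they are named here after their values were seen. Lrp8 had a log2 fold change of 0.14 (SE 0.06; edgeR adjusted p = 0.243), Vldlr 0.07 (SE 0.08; adjusted p = 0.669) and Scarb1 -0.03 (SE 0.09; adjusted p = 0.880). Apod, an apolipoprotein made by glia, had 59.6, 65.3, 52.0 and 65.2 CPM in retrieval and 48.3, 47.1, 42.7 and 49.2 CPM in non-retrieval (0.37, SE 0.08; edgeR adjusted p = 0.0130). Apod did not overlap between groups, whereas 1 non-retrieval library of Lrp1 passed the lowest retrieval library. Groups without overlap and with retrieval higher were found in 2 of the 35 genes (5.71%), against 6.59% of all tested genes.

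Of 18 genes for fatty acids that SREBP factors also govern, 1 rose (5.56%, against 3.67% of all tested genes) and 17 did not pass. Their median log2 fold change was 0.15, and 14 were positive (77.8%, against 47.8% of all tested genes). Elovl6, which lengthens fatty acids, had 69.8, 57.9, 59.1 and 65.8 CPM in retrieval and 57.5, 50.04, 52.5 and 47.5 CPM in non-retrieval (0.28, SE 0.08; edgeR adjusted p = 0.0449). In all, 3 of these 53 further genes were called, and the number was 0 without retrieval replicate 4 or non-retrieval replicate 3, 1 without retrieval replicate 3 or non-retrieval replicate 4, and 8 without retrieval replicate 1.

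Retrieval libraries differed among themselves in which genes stood high. Retrieval replicate 1 was the highest of the 8 libraries for 7 genes, Hmgcs1, Idi1, Cyp51, Msmo1, Hsd17b7, Sc5d and Stard4, and the lowest for Dhcr7, Srebf1, Scap and Apoe. Retrieval replicate 2 was the lowest for Hmgcs1, Idi1, Msmo1, Nsdhl and Stard4, and the highest for 8 genes, Srebf1, Srebf2 and Scap among them. Stard4 had 48.3, 38.7, 40.0 and 40.1 CPM in retrieval and 41.5, 43.6, 42.6 and 40.5 CPM in non-retrieval, and Dhcr7 had 32.4, 42.4, 33.5 and 43.5 CPM in retrieval and 33.0, 40.4, 32.8 and 37.6 CPM in non-retrieval. These genes were singled out after their values were seen.

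**Figure D5:**
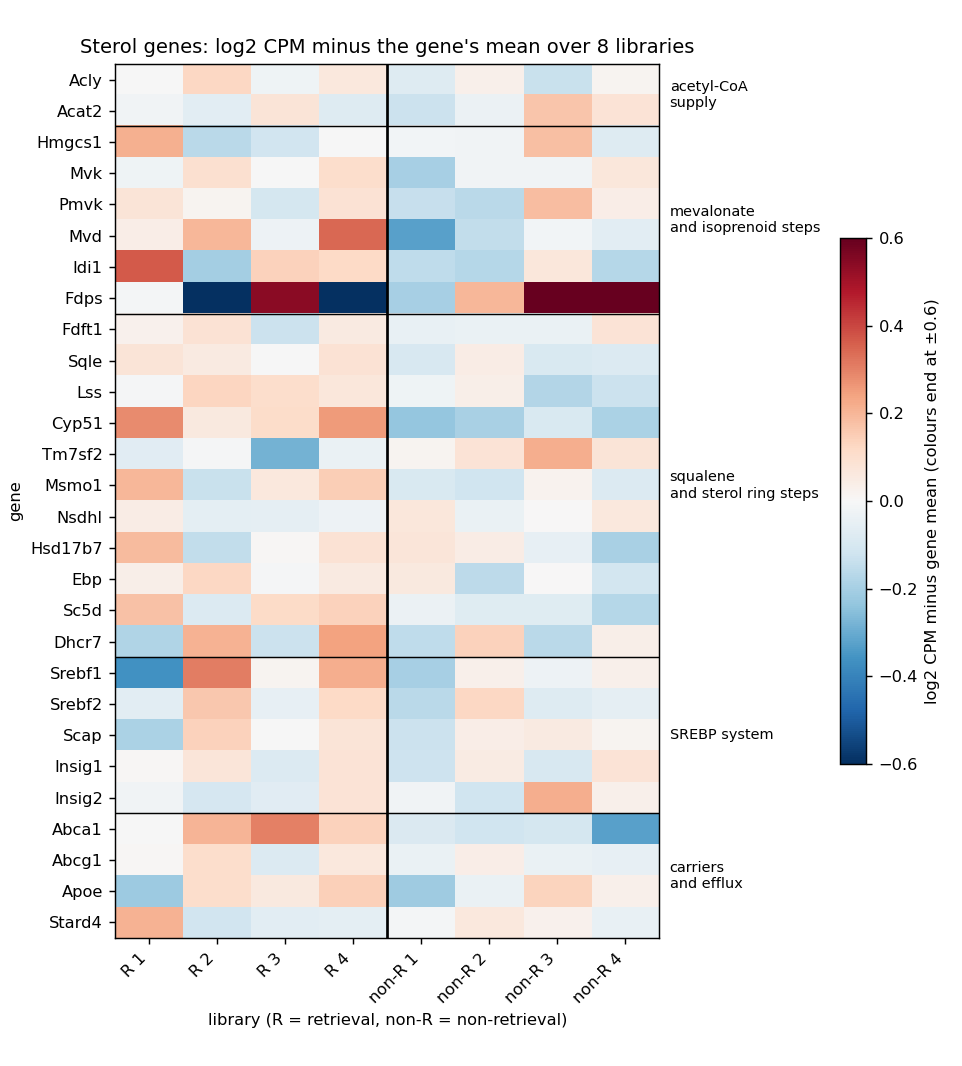
Log2 CPM minus the mean of the gene over all 8 libraries (colour), for 28 genes in pathway order and 8 libraries, with retrieval on the left of the black line. Cyp51 is red in all 4 retrieval libraries, while Hmgcs1, Idi1, Msmo1 and Stard4 run opposite to Srebf1 and Scap between retrieval replicates 1 and 2.

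Promoter windows from RefSeq (GRCm38.p6, 250 bases before to 50 after the start site) were found for 23 of the 28 genes, in 33 windows. They were read because SREBP factors bind sterol regulatory elements beside NF-Y, a factor that binds the CCAAT box. The element spelled TCACNCCAC, on either strand, occurred in 1 of the 23 genes, Hmgcs1, and in 1.40% of the tested genes with a window. Only this exact spelling was searched. A gene without it can still hold a sterol element with other letters, and such variants were not counted. The box CCAAT occurred in 19 of the 23 genes (82.6%), against 42.3% of the tested genes with a window, and in 37.4% of all windows. The Sp1 box GGGCGG occurred in 21 of the 23 (91.3%), against 66.3% of the tested genes with a window. Overlaps between motifs were not removed, and genes with several windows count once if any window holds the motif.

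The windows of both genes that rose are shown beside those of Hmgcs1, Mvd and Sc5d. Hmgcs1 holds the sterol element in the spelling searched and did not pass, and Mvd and Sc5d are the next 2 by unadjusted p. Sequences run 5′ to 3′ along the gene, and capitals mark CCAAT or its complement ATTGG, and in Hmgcs1 also TCACCCCAC.
Cyp51 promoter (chr5:4104648-4104947, minus strand): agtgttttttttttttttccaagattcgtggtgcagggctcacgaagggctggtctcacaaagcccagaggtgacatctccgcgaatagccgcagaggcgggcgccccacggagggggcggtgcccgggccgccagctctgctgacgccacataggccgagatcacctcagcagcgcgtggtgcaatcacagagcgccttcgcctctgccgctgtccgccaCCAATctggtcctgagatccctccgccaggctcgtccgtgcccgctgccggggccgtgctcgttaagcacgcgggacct
Abca1 promoter (chr4:53159846-53160145, minus strand): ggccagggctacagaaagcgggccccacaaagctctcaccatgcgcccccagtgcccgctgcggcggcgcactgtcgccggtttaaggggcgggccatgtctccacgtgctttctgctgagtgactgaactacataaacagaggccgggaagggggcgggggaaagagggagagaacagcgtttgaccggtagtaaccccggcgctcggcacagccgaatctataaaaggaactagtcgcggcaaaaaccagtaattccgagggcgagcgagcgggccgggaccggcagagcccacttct
Hmgcs1 promoter (chr13:119690101-119690400, plus strand): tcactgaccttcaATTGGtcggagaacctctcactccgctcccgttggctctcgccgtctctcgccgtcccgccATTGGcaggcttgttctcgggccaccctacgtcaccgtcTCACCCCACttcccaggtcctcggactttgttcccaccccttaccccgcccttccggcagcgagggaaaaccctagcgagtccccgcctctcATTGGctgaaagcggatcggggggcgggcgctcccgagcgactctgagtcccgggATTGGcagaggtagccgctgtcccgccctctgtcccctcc
Mvd promoter (chr8:122443373-122443672, minus strand): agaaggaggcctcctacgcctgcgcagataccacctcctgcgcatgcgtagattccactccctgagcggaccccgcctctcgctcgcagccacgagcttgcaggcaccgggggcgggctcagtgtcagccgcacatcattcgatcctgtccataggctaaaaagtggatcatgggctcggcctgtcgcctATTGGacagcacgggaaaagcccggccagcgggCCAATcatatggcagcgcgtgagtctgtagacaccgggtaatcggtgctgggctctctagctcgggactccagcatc
Sc5d promoter (chr9:42264251-42264550, minus strand): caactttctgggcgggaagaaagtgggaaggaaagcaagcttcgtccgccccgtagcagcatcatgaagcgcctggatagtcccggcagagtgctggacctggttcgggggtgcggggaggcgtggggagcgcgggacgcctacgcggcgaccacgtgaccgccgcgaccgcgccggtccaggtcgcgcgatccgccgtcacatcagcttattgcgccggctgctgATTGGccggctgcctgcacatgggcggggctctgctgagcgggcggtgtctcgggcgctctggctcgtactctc
Cyp51 holds 1 CCAAT box, Sc5d 1, Mvd 2 and Hmgcs1 4, and Abca1 holds none in this window. Whether these letters bear on the fold changes was not tested.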

How the data were processed

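Per the file headers, the deposited table holds raw read counts per gene, not normalized, with the length of each gene model in bases. Reads were handled with HISAT2 2.0.5 and featureCounts 1.5.0-p3 on GRCm38, per the submitters' processing notes, which in the sources used here give neither the annotation release nor the strand setting. The names of the 8 count columns match the sample titles. Of the 28 gene models, 26 have the same length as in GENCODE M21. The other 2 are Tm7sf2, at 5593 bases against 4403 in M21, and Abcg1, at 4066 against 7298.

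The comparison was edgeR's two-sided quasi-likelihood F test (edgeR 4.0.16, R 4.3.3) after filterByExpr and TMM scaling, and p-values were adjusted by the Benjamini-Hochberg method across the 16745 genes left, with calls at an adjusted p under 0.05. The SE is the log2 fold change divided by the root of F. Alternatives used limma 3.58.1 and DESeq2 1.42.0, and a gene length and GC offset was added after the data were seen. Any pair of libraries differed beyond sampling noise, with a chi-square per gene of at least 6.19. The genes and lists were chosen with earlier results of these data known. Values in every library are given for the 12 of the 28 genes with the smallest p, and other sterol or fatty acid genes are named where called. Near-identical copies were sought with blastn in GENCODE M21 transcripts, and matches to genes that overlap at the same locus were kept.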

Additional observations from a re-analysis of the deposited data

Results flagged for a closer look

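In 6 of 56 sets of 4 libraries, 28 genes in each of 2 groups, 1 library stood apart from the other 3 by Dixon's criterion, which chance meets in about 1 of 20 sets. Stard4 stood at 48.3 CPM in retrieval replicate 1, against 38.7 to 40.1 CPM in the other retrieval libraries. The other 5 were in non-retrieval. Abca1 stood at 30.0 CPM in replicate 4, against 34.6 to 35.4 CPM, and was the only one of the 6 to stand low. Fdft1 stood at 110 CPM in replicate 4, against 100.9 to 101.2 CPM. Sqle stood at 85.4 CPM in replicate 2, against 77.4 to 78.2 CPM, and Abcg1 at 72.9 CPM in the same library, against 68.6 to 69.2 CPM. Idi1 stood at 21.4 CPM in replicate 3, against 18.1 to 18.3 CPM.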

How the results depend on the processing

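Over 22 alternatives, 552 of 616 fold changes of the 28 genes kept their direction and their side of the threshold, 10 lost a call, 8 gained one and 46 changed sign, all of these in uncalled genes. The reported analysis had 766 called genes (615 higher, 151 lower), 2 of the 28 genes, 3 further sterol and fatty acid genes and a median of 0.073 (log2). The cause of the changes was not tested. With limma-voom, 1619 genes were called (1110 higher, 509 lower) and 8 further genes. With the myelin covariate, 199 were called (179 higher, 20 lower), with 0 of the 28 and 0 further genes, and the median was 0.018. With the length and GC offset, 1324 were called, 491 of them lower, and 4 of the 28 (Mvd, Cyp51, Sc5d and Abca1). An adjusted p under 0.1 gave 1173 genes, 284 lower. Genes lower numbered 241 with no filter, 236 with DESeq2 and 231 with the astrocyte covariate. The median was 0.031 with the striatal covariate, 0.043 with the astrocyte covariate and 0.046 with upper-quartile factors, and the striatal covariate called Cyp51 and Sc5d. Upper-quartile factors and the length offset each left 1 further gene.

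Leaving out 1 library gave 330 to 1360 called genes, 283 to 1032 higher, 45 to 328 lower, 1 to 3 of the 28, 0 to 8 further genes and a median of 0.030 to 0.10. No gene of the 28 was called lower under any alternative run, DESeq2 and limma included, and 1 of them, Tm7sf2, was lower at an unadjusted p under 0.05 in edgeR.

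Sign changes with the myelin covariate gave log2 fold changes of -0.027 for Acly, 0.026 for Acat2, 0.065 for Hmgcs1, -0.017 for Mvk, 0.16 for Fdps, -0.072 for Fdft1, 0.0035 for Nsdhl, -0.25 for Dhcr7, -0.22 for Srebf1, -0.12 for Srebf2, -0.15 for Scap, -0.074 for Insig1, -0.069 for Abcg1, -0.087 for Apoe and 0.072 for Stard4. The astrocyte covariate gave 0.016 for Hmgcs1, -0.034 for Srebf1, -0.054 for Scap, -0.043 for Apoe and 0.044 for Stard4. The striatal covariate gave 0.031 for Hmgcs1, -0.0057 for Fdft1, -0.0019 for Srebf1, -0.046 for Scap and 0.031 for Stard4. Upper-quartile factors gave -0.0053 for Fdft1 and -0.014 for Scap, the length and GC offset 0.0041 for Nsdhl and -0.064 for Scap, and the length offset -0.021 for Scap. Leaving out 1 library gave -0.091 to 0.0044 for Acat2, -0.012 to 0.13 for Apoe, -0.0048 to 0.068 for Fdft1, -0.10 to 0.028 for Hmgcs1, -0.10 to 0.0086 for Insig2, -0.014 to 0.10 for Pmvk, -0.033 to 0.081 for Scap and -0.080 to 0.026 for Stard4.

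The replicate block called 1791 genes (1274 higher, 517 lower), 4 of the 28 (Mvd, Cyp51, Sc5d and Abca1) and 7 further genes. Correlations of same-numbered libraries were 0.22, 0.085, 0.027 and 0.0996 for numbers 1 to 4, and every library correlated best with its own number. The numbers were not taken as pairs in the reported analysis, because no label says that they mark a shared litter, cage or day. Depth limits Fdps most, at 14 to 50 counts a library.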
